A study of Mus musculus with 64 samples.

Results

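H3K27me3 on the autosomes was compared between splenic CD23+ B cells stimulated with CpG for 24 h (4 libraries) and for 12 h (3 libraries). These 7 libraries were chosen by antibody and time, out of 64 samples in the series, of which 61 have a peak list. Both groups were cells of female F1 mus x cast mice, the offspring of C57BL/6 mothers with a heterozygous Xist deletion and M. m. castaneus fathers, and both received 1 µM CpG. The sources used here do not say which animals inherited the deletion or how replicate numbers relate to animals, ages are not given, and the labels call the replicates biological. Cells were isolated through an antibody against CD23, and the lists hold peaks of the Cast allele only. CUT&RUN locates a chromatin mark by tethering a nuclease to an antibody bound to it, so that DNA around the mark is cut out and sequenced.

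H3K27me3 is laid down by Polycomb repressive complex 2 (PRC2), whose subunit Suz12 is needed for the activity of its methyltransferase. The mark is found over silent genes, above all CpG-rich promoters of developmental regulators, and it is bound by chromobox subunits of Polycomb repressive complex 1, which ubiquitinates H2AK119 nearby. In B cells, CpG DNA is sensed by the receptor TLR9, which leads to activation, division and differentiation toward antibody secretion.

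At 24 h peaks of the mark covered nearly all of what they covered at 12 h and about as much again. The authors' signal scaling differed between the times and read depth is unknown. Their part in the wider coverage was not tested. The added length lay as wider domains around the 12 h peaks and as separate, shorter peaks. Hox and other developmental homeobox genes were already widely marked at 12 h. At 24 h 18 of 39 Hox genes passed as higher, against 18 of 86 other developmental homeobox and T-box genes and 29.4% of all genes tested. Genes such as Ccl12, C1qa, Cd7 and Il6 had no peak in any 12 h library and were covered in all 4 libraries at 24 h. They entered the test only through 24 h. In unstimulated cells C1qa averaged 10.4%, Cd7 12.4%, and Ccl12 and Il6 0%. Ccl12 and Il6 did not pass when each list was cut at its median highest signal. Genes of B cell identity had no peak in any library.

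Promoters of 5 genes show the kinds of start site that the results turn on. Cdkn2a (inhibitors of the cell cycle) and Hoxa7 (body axis patterning) had their start sites under a peak at both times. Irx3 (a homeobox factor), Il6 (the cytokine interleukin 6) and Ccl12 (a chemokine that attracts monocytes) had none there at 12 h. The sequences are from RefSeq on GRCm38.p6, the same assembly as mm10, from 250 bases before to 50 after the start, 5′ to 3′, with CG dinucleotides in capitals. CG reads the same on both strands.
Cdkn2a, chr4:89294570-89294869, minus strand: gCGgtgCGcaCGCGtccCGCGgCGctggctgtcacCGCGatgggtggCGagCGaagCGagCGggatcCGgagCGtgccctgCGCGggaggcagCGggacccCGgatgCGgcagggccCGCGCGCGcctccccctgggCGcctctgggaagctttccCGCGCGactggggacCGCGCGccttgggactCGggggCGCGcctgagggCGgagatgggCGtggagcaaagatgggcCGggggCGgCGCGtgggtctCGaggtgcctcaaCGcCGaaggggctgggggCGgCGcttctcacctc
Hoxa7, chr6:52218524-52218823, minus strand: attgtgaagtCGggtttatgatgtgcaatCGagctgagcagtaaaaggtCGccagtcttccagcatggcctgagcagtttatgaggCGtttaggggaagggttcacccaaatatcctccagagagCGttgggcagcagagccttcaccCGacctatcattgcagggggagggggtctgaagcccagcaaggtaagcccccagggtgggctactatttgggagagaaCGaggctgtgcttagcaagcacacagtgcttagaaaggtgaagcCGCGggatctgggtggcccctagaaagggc
Irx3, chr8:91801605-91801904, minus strand: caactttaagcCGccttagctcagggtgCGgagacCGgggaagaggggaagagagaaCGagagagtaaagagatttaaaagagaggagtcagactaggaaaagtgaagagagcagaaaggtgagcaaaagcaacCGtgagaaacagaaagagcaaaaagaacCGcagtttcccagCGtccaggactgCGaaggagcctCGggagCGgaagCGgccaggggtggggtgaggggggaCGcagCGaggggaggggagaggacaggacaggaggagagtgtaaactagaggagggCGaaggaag
Il6, chr5:30012864-30013163, plus strand: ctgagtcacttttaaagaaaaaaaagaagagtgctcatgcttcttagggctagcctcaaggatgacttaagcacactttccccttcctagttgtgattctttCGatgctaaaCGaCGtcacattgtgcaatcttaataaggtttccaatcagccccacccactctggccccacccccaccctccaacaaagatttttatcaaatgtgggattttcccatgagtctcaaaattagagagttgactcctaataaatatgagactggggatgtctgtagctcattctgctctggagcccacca
Ccl12, chr11:82101595-82101894, plus strand: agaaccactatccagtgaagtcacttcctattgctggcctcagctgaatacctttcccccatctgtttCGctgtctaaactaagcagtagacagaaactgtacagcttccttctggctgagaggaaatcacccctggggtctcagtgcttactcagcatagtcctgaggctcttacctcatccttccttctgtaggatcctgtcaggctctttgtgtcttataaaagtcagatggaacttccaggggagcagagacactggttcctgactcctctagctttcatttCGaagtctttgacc

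The Cdkn2a window shown holds 45 CG dinucleotides, the Hoxa7 window 9, the Irx3 window 14, the Il6 window 3 and the Ccl12 window 2. Another Cdkn2a window (chr4:89282143-89282442), covered in 4 libraries at 24 h and 3 at 12 h, holds 12. Of all 31396 autosomal promoter windows, 44.0% hold at least 10. The Il6 window was covered over at least 150 of its 300 bases in 3 libraries at 24 h, against no library at 12 h. The Ccl12 and Irx3 windows were covered in all 4 libraries at 24 h and also in none at 12 h.

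The 24 h libraries covered 223.1, 201.2, 216.0 and 310.5 Mb of the autosomes with peaks, and the 12 h libraries 131.6, 103.5 and 80.9 Mb. The groups did not overlap, and replicate 4 at 24 h covered the most. The geometric mean was 2.27-fold higher at 24 h (log2 difference 1.18, 2-sided exact permutation test, p = 0.0286, which is the smallest this design allows, adjusted p = 0.0357 over 5 measures). Peaks numbered 20456 ± 2616 at 24 h (SD, n = 4) and 12987 ± 2914 at 12 h (SD, n = 3), 1.59-fold more at 24 h. They averaged 11566 ± 1207 bp at 24 h and 8114 ± 590 bp at 12 h, 1.42-fold longer at 24 h. Peaks of at least 20 kb held 36.2% ± 6.26 of the covered length at 24 h and 14.1% ± 3.65 at 12 h. These 3 measures also separated the groups completely and gave the same exact permutation p = 0.0286 (adjusted p = 0.0357).

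The share of the covered length inside gene regions was 55.0% ± 0.442 at 24 h and 56.4% ± 1.81 at 12 h (exact permutation p = 0.114). A gene region is the gene body with 2 kb on each side. All 19 autosomes were covered more at 24 h, with ratios of mean coverage between 2.01 on chromosome 19 and 2.40 on chromosome 14. No autosome stood far from the ratio of the whole.

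**Figure D1:**
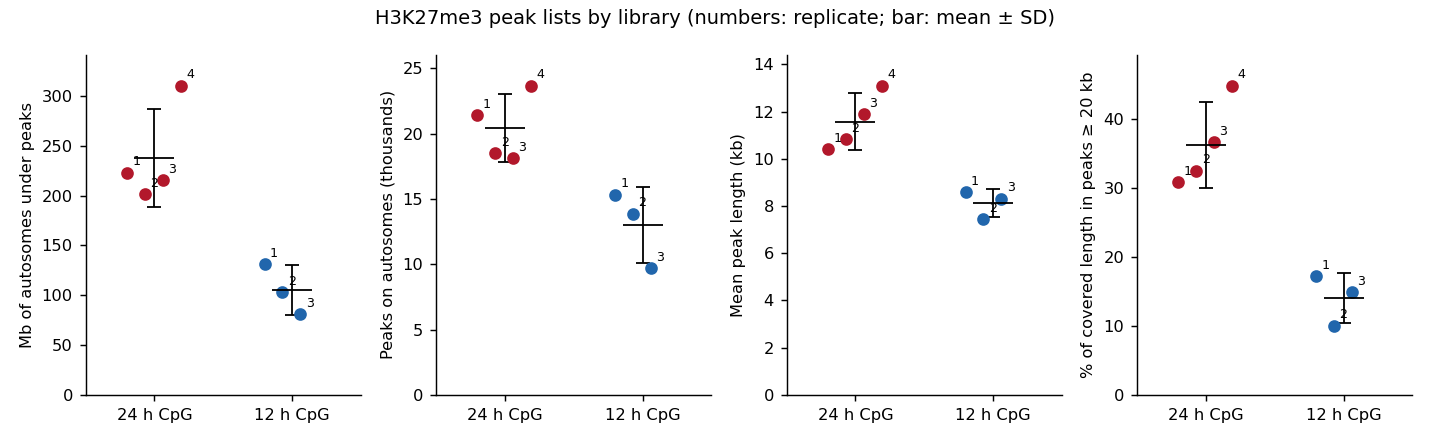
Covered autosomal length (Mb), number of peaks, mean peak length (kb) and share of the covered length in peaks of at least 20 kb (percent), with 1 point for each library and bars for the mean ± SD, 24 h left of 12 h. In each panel all 4 libraries at 24 h lie above all 3 at 12 h.

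The read depth behind these values is unknown. The highest signal of a peak came in whole steps, of 1 in all 4 lists at 24 h and of 0.770, 0.892 and 0.601 in the lists at 12 h, so the authors' scaling differed between the times, while the lowest signal kept was 6 steps in all 7 lists. The median highest signal was 17, 15, 16 and 17 steps at 24 h and 14, 13 and 15 steps at 12 h, so the lowest value at 24 h equalled the highest at 12 h. The part of depth and scaling in the covered length was not tested. Covered length in a bulk sample also cannot tell more cells carrying the mark from more mark in each cell.

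The mark at 24 h was next compared with that at 12 h base by base. Regions were defined at 12 h as bases under a peak in at least 2 of 3 libraries (12895 regions, 96.5 Mb) and at 24 h as bases under a peak in at least 3 of 4 (19566 regions, 200.2 Mb). A library at 24 h covered 96.3% ± 1.85 of the bases of the 12 h regions (SD, n = 4, range 94.6 to 98.9). A library at 12 h covered 48.1% ± 9.30 of the bases of the 24 h regions (SD, n = 3, range 39.4 to 57.9). Of the 12895 regions at 12 h, 17 met no peak in any library at 24 h. Loss of a 12 h region was thus rare, and the difference between the times lay almost wholly in added bases. Libraries at 24 h shared a median 0.626 of their joint covered bases with each other (6 pairs), libraries at 12 h 0.466 (3 pairs), and pairs across times 0.401 (12 pairs).

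Of the bases in the 24 h regions, 46.7% lay in 12 h regions, 24.4% lay under a peak of 1 library at 12 h, and 28.9% (57.8 Mb) lay under no 12 h peak. Of these 57.8 Mb, 37.5% belonged to regions joined to a 12 h region and 62.5% to other regions. Joined regions numbered 9759 and held 72.3% of the 24 h length, with a median of 11.4 kb, and 34.4% of them held a start site. Regions apart from every 12 h peak numbered 5611 and held 13.5% of the length, with a median of 4.57 kb, and 10.3% of them held a start site. These shares were not adjusted for length. Regions with a start site numbered 3360 in 144.6 Mb of joined regions and 580 in 27.1 Mb of regions apart. Among 7700 regions holding exactly 1 region of 12 h, the median length at 24 h was 9.60 kb, against 5.51 kb covered at 12 h within it. Another 2059 regions at 24 h held 2 or more 12 h regions, so that peaks separate at 12 h lay in a single domain at 24 h.

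The longest region at 24 h spanned 287.6 kb over Lifr, a cytokine receptor gene, and Egflam on chromosome 15 (chr15:6985747-7273369, mm10). It was covered over 100%, 99.0%, 99.5% and 100% at 24 h, and over 90.5%, 79.0% and 83.6% at 12 h. The second spanned 152.1 kb over Hoxc13 to Hoxc9, developmental regulators of the posterior body (chr15:102829476-102981607), and held 10 separate 12 h regions. It was covered over 93.4%, 95.2%, 100% and 100% at 24 h, and over 77.2%, 72.0% and 67.9% at 12 h. Other long regions lay over Otp (129.7 kb), Nkx2-3 (128.6 kb) and Evx2 with Hoxd13 to Hoxd10 (118.3 kb). Of the 8 longest regions, 4 thus held homeobox genes, and 12 h regions made up 71.2% to 85.6% of their length. The longest region apart from any 12 h peak measured 22.1 kb and lay in Lmo7 (chr14:101744950-101767085). A region of 17.2 kb over Il6 (chr5:29997601-30014752) was the seventh longest of this kind. It was covered over 70.2%, 89.6%, 94.7% and 91.8% at 24 h and over 0% in all 3 libraries at 12 h.

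Around start sites, the same widening was seen. A promoter window counted as covered when at least 150 of its 300 bases lay under a peak. The libraries at 24 h covered 6805, 6428, 6717 and 8410 windows, and the libraries at 12 h 4409, 3690 and 3694. By classes set on these same lists, 3842 windows were covered at both times (at least 3 libraries at 24 h and 2 at 12 h), 1445 at 24 h and in no 12 h library, and 13 at 12 h and in at most 1 library at 24 h. Windows covered at both times held a median of 13 CG dinucleotides, and 60.2% held at least 10. Windows covered at 24 h only held a median of 8, with 46.9% at 10 or more, while windows covered in no library held a median of 6, with 41.5%. The windows that were covered only at 24 h thus had fewer CG dinucleotides than those covered at both times and were nearer to all windows, whose median was 7.

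Windows with 0 or 1 CG dinucleotide were covered in 12.1% ± 2.70 of cases at 24 h and in 5.55% ± 1.51 at 12 h, a ratio of 2.18. Windows with 20 or more were covered in 25.6% ± 2.18 at 24 h and in 15.8% ± 1.36 at 12 h, a ratio of 1.62. The ratio between the times fell along the classes of CG content, with 2.18, 2.18, 1.90, 1.65 and 1.62 from the poorest to the richest. Coverage itself was higher in the rich classes at both times. At 5.5 kb upstream of start sites covered at both times, 68.1% ± 4.81 of sites had a peak at 24 h and 42.3% ± 4.49 at 12 h. At 30 kb upstream these values were 33.6% ± 5.05 at 24 h and 16.8% ± 3.67 at 12 h.

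**Figure D2:**
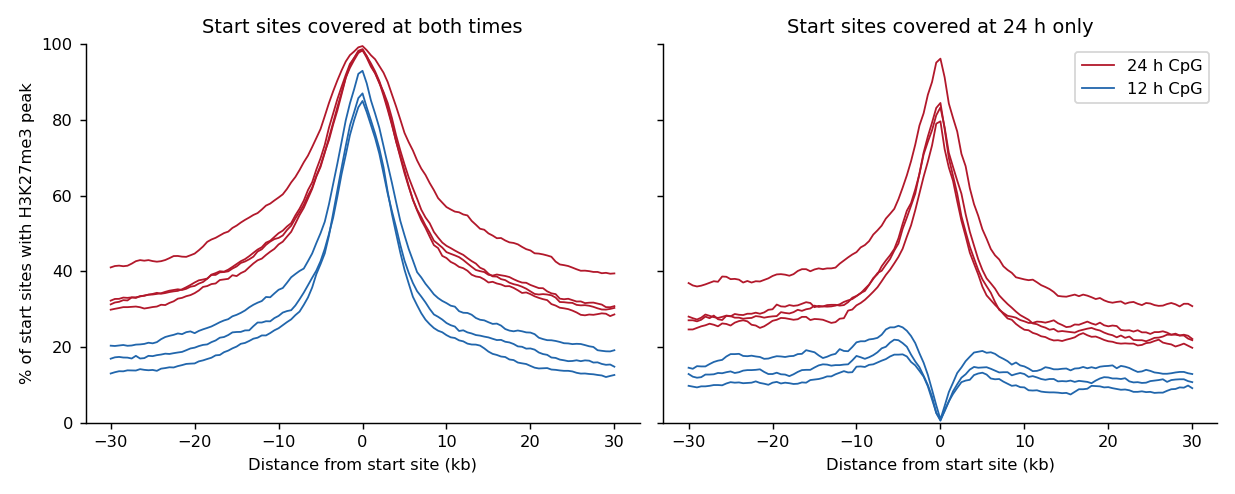
Share of start sites (percent) with an H3K27me3 peak at each distance (kb) from the start, for sites covered at both times (left) and at 24 h only (right), with 1 line for each library. At sites covered at both times the 24 h curves are wider, and at 5.5 kb upstream they average 68.1% against 42.3% at 12 h. The dip at 0 on the right follows from how those sites were chosen.

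Genes were compared by the percent of their region under peaks. Of 33073 autosomal protein-coding and lncRNA genes, 18742 had no peak in the 7 libraries, 2981 had one in 1 or 2 libraries, and 11350 had one in at least 3 and were tested. The difference (24 h minus 12 h, in percentage points) was positive for 10975 genes and negative for 195, with a median of 17.6 points. In limma, 3333 genes were higher at 24 h at an adjusted p under 0.05 (29.4% of those tested) and 0 were lower. At an unadjusted p under 0.05, 5893 were higher and 0 lower. In 5418 genes (47.7%) every library at 24 h lay above every library at 12 h, and in 0 genes did every library at 24 h lie below. Leaving out replicate 2 or replicate 3 at 12 h gave 1888 and 1964 higher genes. With the replicate number as a block 0 genes passed, though the sources used here do not tie these numbers to animals. A filter that counts libraries with a peak admits 2073 genes with 0% in all 12 h libraries, which entered only through 24 h, so the p-values of such genes are a description. Of 80 named genes that passed unscaled, 58 passed in each of the 7 fits that left out 1 library, among them Ccl12, C1qa, Cd7, Il6, Hoxa7, Irx3, Gad1 and Tbx21. The gene filter stayed the same in these fits, and Ccl12, C1qa, Cd7 and Il6 had entered only through 24 h. Most named genes were picked by gain or by small p, so passing again is a description and not separate support. With stricter lists, cut at each list's median highest signal, 66 of the 80 were tested and 14 of these did not pass, among them Ccl12 (75 points, adjusted p = 0.0776) and Il6 (21.99 points, adjusted p = 0.0999). At equal covered length 34 were tested and 19 did not pass. With the unstimulated libraries added to the unscaled fit, 4155 genes were higher. Named genes that did not pass there included Hoxa7 (adjusted p = 0.186), Irx3 (0.0536), Pax2 (0.135), Barhl1 (0.0623), Nhlh1 (0.438) and Fgf23 (0.0938).

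To ask which genes stood out beyond the wider coverage as a whole, each library was scaled by its autosomal covered length. This brought the median difference to 0.45 points, with 1082 genes higher (9.53%) and 934 lower (8.23%). Without replicate 2 at 12 h these counts were 597 and 40. The count of lower genes was 37, 474, 88 and 58 without replicates 1, 2, 3 and 4 at 24 h and 1543 without replicate 1 at 12 h, so it rested on single libraries. Scaling cannot handle a full region: a gene covered over 100% in all 7 libraries comes out lower at 24 h by construction. Of the 934 lower genes, 867 had an unscaled difference of 0 or above, and 412 had a 12 h mean of at least 90%. In a second way of levelling, each library kept its peaks of highest signal until they covered the length of the smallest library. This was replicate 3 at 12 h (80.9 Mb). Then 6354 genes were tested, of which 466 were higher at 24 h (7.33%) and 284 lower (4.47%), with a median difference of 3.77 points. The lists at 24 h (201.2 to 310.5 Mb) were cut more than those at 12 h (up to 131.6 Mb). A lower value at 24 h there is thus not read as loss of the mark. Of the 1082 genes higher after scaling, 177 were tested at equal covered length, and of these 56 were higher and 0 lower.

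Genes higher both unscaled and scaled numbered 1020 (8.99%), of which 600 were protein-coding. Their coverage had a median of 34.5% at 24 h and 0% at 12 h, and 797 of them had 0% in all 3 libraries at 12 h, so they entered the test only through 24 h. Among genes with a 12 h mean above 60% and up to 80%, 220 of 737 were higher unscaled and 0 after scaling, and 193 were lower after scaling. That the 1020 genes mostly lacked the mark at 12 h follows from the filter and the scaling, and nothing is read from it.

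**Figure D3:**
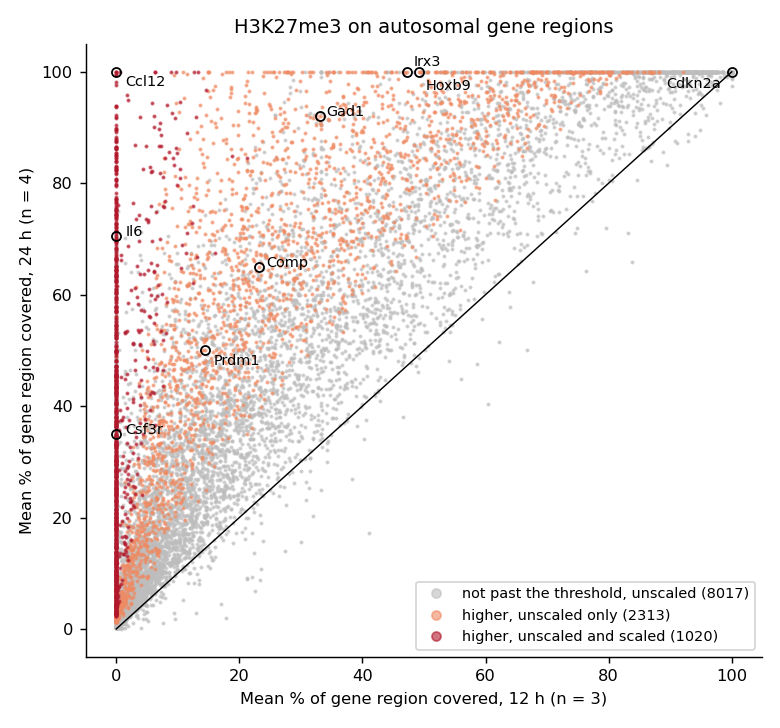
Mean percent of each tested gene region covered at 24 h (n = 4, vertical) against 12 h (n = 3, horizontal), with the diagonal of equal coverage and 9 genes circled. Of the 11350 genes, 10975 lie above the diagonal, and the 1020 genes higher both unscaled and scaled crowd at 0% to 20% on the 12 h axis.

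The protein-coding genes with the largest gains, at most 1 for each 200 kb and higher in both fits, had little or no coverage at 12 h. They were picked for the size of the gain, and those with 0% in all 3 libraries at 12 h entered the test only through 24 h, so their differences are a description. Ccl12 was covered over 100% in all 4 libraries at 24 h and over 0% in all 3 at 12 h (difference 100 points, and 71.3 scaled points). Hrct1 showed the same values, and its region also holds Spaar. C1qa, a chain of the complement component C1q made by macrophages, had 100%, 100%, 100% and 90.5% at 24 h and 0% in all 3 libraries at 12 h (97.6 points). The groups did not overlap for any of these genes, as for 47.7% of all genes tested, and the 12 h value was exactly 0 in each library. Cd7, a surface protein of T and NK cells, had 86.5%, 81.0%, 100% and 100% at 24 h and 0% in all 3 at 12 h (91.9 points). Oscar, an activating receptor of myeloid cells and osteoclasts whose region also holds Ndufa3, had 100%, 73.9%, 97.5% and 88.4% at 24 h and 0% at 12 h. Hamp2, a member of the hepcidin family of the liver, differed by 89.5 points, Hap1, a partner of huntingtin in neurons, by 88.3 points, and Eppin, a protease inhibitor of the epididymis, by 87.5 points. The olfactory receptor genes Olfr713 and Olfr282 differed by 99.7 and 86.7 points, Cfap97d1 by 93.7 and Fam241b by 88.5. Olfr282 had 39.996% in 1 library at 12 h and Fam241b 17.5% in 1 library, and the others had 0% in all 3. In unstimulated cells (3 libraries) C1qa averaged 10.4%, Cd7 12.4% and Fam241b 5.15%, and the others of these 12 had 0%. None of these genes belongs to the B cell lists. Of these 12, 11 had a peak in fewer than 3 libraries at equal covered length and were not tested. At least part of their gain thus lay in 24 h peaks below that cut. Fam241b had 61.4 points there (adjusted p = 0.188).

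No gene passed the test as lower unscaled. The 6 most negative scaled differences among genes with a 12 h mean of at most 90% were those of Calhm4, Cpne7, Ifna16, Olfr1450, Nkapl and Cebpd, between -86.4 and -78.6 scaled points. Their unscaled differences ran from -12.0 points (Olfr1450, adjusted p = 0.302) to 3.26 points (Cebpd, adjusted p = 0.67), all within the spread. Calhm4 had 90.1%, 76.9%, 89.3% and 76.6% at 24 h and 89.2%, 89.4% and 90.1% at 12 h. It was lower at 24 h at equal covered length, by -89.6 points (adjusted p = 0.00011). That cut took most of the length of each 24 h list and left the smallest 12 h list whole. Its coverage at 12 h was thus kept in full, and its peaks at 24 h fell below the cut. As the cut was deeper at 24 h, the difference is not read as loss of the mark. Cpne7 (12.1 points, adjusted p = 0.635), Ifna16 (0 points) and Cebpd, a transcription factor of myeloid and fat cells (3.26 points, adjusted p = 0.783), were not lower at equal covered length.

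Some genes were full at both times. In 250 genes, 141 of them protein-coding, every library had at least 90%. Cdkn2a and Cdkn2b, which encode inhibitors of cell cycle kinases and lie next to each other, had 100% in all 7 libraries. So did Dmrt3 and Hmx1, transcription factors of the developing nervous system, and Skor1, Caly and B4galnt4. In unstimulated cells the mean coverage was already 73.6% at Cdkn2a and 88.6% at Dmrt3 (3 libraries), and 43.2% at B4galnt4. Of the other CDK inhibitor genes, Cdkn1b, Cdkn2d and Cdkn3 had no peak in 7 libraries. Cdkn1c had 15.6%, 20.2%, 19.1% and 0% at 24 h and 17.7%, 17.7% and 0% at 12 h. Cdkn1a had 38.7%, 0%, 0% and 27.2% at 24 h and 0% in all 3 at 12 h, and Cdkn2c had 6.24% in 1 library at 24 h. Of 8 genes in the CDK inhibitor list, 3 were tested and 0 were higher, against 29.4% of all genes tested.

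Hox genes, which set position along the body axis, were all covered to some degree. Over all 39 genes of the 4 clusters the mean coverage was 84.5% ± 6.69 at 24 h (n = 4) and 53.2% ± 5.82 at 12 h (n = 3). All 39 were tested, and 18 were higher unscaled, against 29.4% of all genes, with a median difference of 32.4 points beside 17.6 over all genes tested. At equal covered length 12 of 38 were higher and 0 lower, beside 7.33% and 4.47% of all genes tested there. After scaling 1 of 39 was higher and 8 were lower, beside 9.53% and 8.23% of all genes tested. Hoxa7 had 100% in all 4 libraries at 24 h and 67.2%, 68.1% and 67.1% at 12 h (32.5 points, SE 2.87, adjusted p = 0.00134). Hoxb9 had 100% in all 4 at 24 h and 56.6%, 51.3% and 39.5% at 12 h (50.9 points, adjusted p = 0.00165). Hoxd8 had 75.4%, 84.1%, 87.1% and 90.8% at 24 h and 23.5%, 34.6% and 34.0% at 12 h (53.6 points, adjusted p = 0.0024). All 3 were higher at equal covered length too (adjusted p = 0.000314, 0.00134 and 0.00247), and their scaled differences had adjusted p of 0.112, 0.711 and 0.647. The Hox clusters are neighbours within their domains, so their genes do not vary independently.

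Other developmental homeobox and T-box factors stood at 82.6% ± 1.46 at 24 h and 66.5% ± 5.18 at 12 h over 88 genes. Of 86 tested, 18 were higher unscaled (20.9%, against 29.4% of all genes tested). At equal covered length 10 of 86 were higher and 0 lower, beside 7.33% and 4.47% of all genes tested there. After scaling 0 were higher and 38 were lower, beside 9.53% and 8.23% of all genes tested. The tested members had a median of 76.7% at 12 h. Irx3, whose region also holds the antisense gene Irx3os, had 100% in all 4 libraries at 24 h and 49.9%, 42.2% and 49.4% at 12 h (52.8 points, adjusted p = 0.00132). In its promoter window, shown above, 0 of 300 bases lay under a peak in each 12 h library, so the covered part of the region lay elsewhere. Pax2, a factor of kidney and eye development, had 96.4%, 92.8%, 98.6% and 100% at 24 h and 68.5%, 70.9% and 67.7% at 12 h (27.9 points, adjusted p = 0.00317). Barhl1 differed by 27.1 points (adjusted p = 0.00227). The groups did not overlap for these 3 genes, picked for small p, as for 47.7% of all genes tested. Each was also higher at equal covered length (adjusted p = 0.000275, 0.00189 and 0.000769).

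Genes of 3 further developmental and neuronal lists passed at shares near the 29.4% of all genes. Of the neurogenic bHLH factors, 6 of 23 tested genes were higher (26.1%). At equal covered length 4 of 23 were higher and 1 was lower, beside 7.33% and 4.47% of all genes tested there. Neurod2 had 81.0%, 84.8%, 85.5% and 86.0% at 24 h and 35.6%, 9.17% and 36.4% at 12 h (57.3 points, adjusted p = 0.00488). Ptf1a differed by 61.6 points (adjusted p = 0.0127) and Nhlh1 by 17.8 (adjusted p = 0.0134). Of Wnt, Fgf and Bmp ligands, 17 of 48 tested were higher (35.4%). Among them Wnt9b had 82.4%, 75.2%, 79.9% and 78.7% at 24 h and 57.2%, 44.9% and 39.0% at 12 h, Fgf23, a hormone of phosphate balance, differed by 23.7 points (adjusted p = 0.00866), and Gdf5, a factor of joint formation, by 28.2 (adjusted p = 0.00518). Gdf5 had no peak at 12 h. Of neuronal channels and receptors, 14 of 49 tested were higher (28.6%). Gad1, which makes the transmitter GABA, had 91.1%, 92.2%, 91.9% and 93.3% at 24 h and 46.2%, 21.3% and 31.6% at 12 h (59.1 points, adjusted p = 0.00256). The neuropeptide gene Vip differed by 79.0 points (adjusted p = 0.00205), and the glycine receptor gene Glra1 by 5.77 points (adjusted p = 0.0101). Gad1 and Wnt9b did not pass at equal covered length (adjusted p = 0.0838 and 0.0877).

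**Figure D4:**
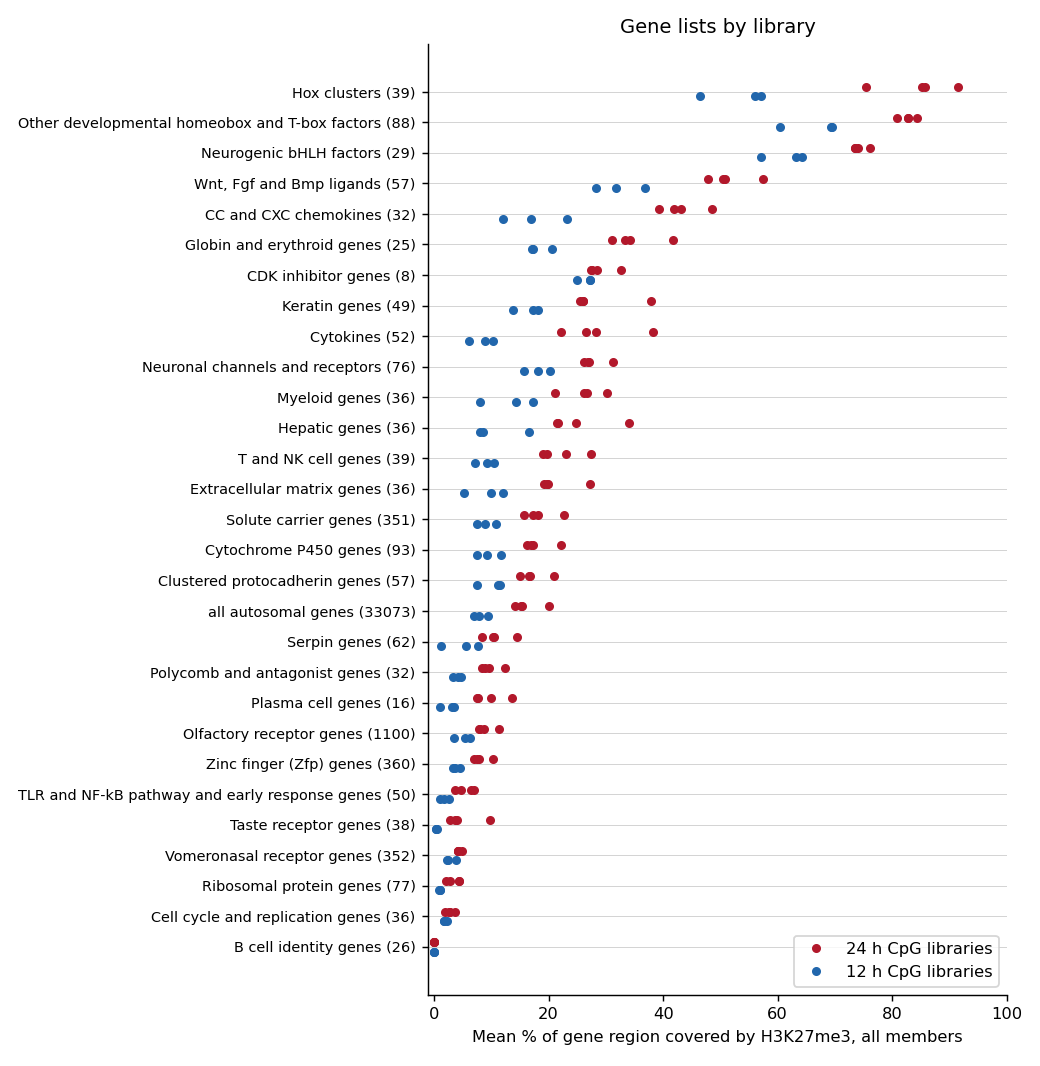
Mean percent of the gene region covered by H3K27me3 over all members of each list (number of genes in brackets), with 1 point for each library, 24 h above 12 h. Hox clusters have the highest mean at 24 h (84.5%, libraries from 75.4% to 91.5%), and B cell identity genes are at 0% in all 7 libraries, beside 16.2% at 24 h and 8.09% at 12 h over all autosomal genes.

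Genes of B cell identity were the opposite case. None of the 26 genes, among them Pax5 and Ebf1, master factors of the lineage, the receptor chain genes Cd79a and Cd79b, and the surface protein gene Ms4a1, had a peak in any of the 7 libraries. As a check of the cell type, H3K27ac, a mark of active elements, covered 78.8% ± 11.9 of the regions of these 26 genes at 24 h and 85.0% ± 6.18 at 12 h (SD, 3 libraries each). It covered 8.25% ± 4.89 at 24 h and 8.09% ± 2.70 at 12 h of T and NK cell genes, and 1.18% ± 1.17 and 1.39% ± 1.95 of myeloid genes. Of 36 cell cycle and replication genes, 28 had no peak (77.8%, against 56.7% of all genes). The 5 tested had 0 higher, against 29.4% of all genes tested. Ccnd1, a cyclin of the early cycle, had 21.6%, 33.5%, 33.2% and 47.7% at 24 h and 33.6%, 5.81% and 25.8% at 12 h, and the groups overlapped (adjusted p = 0.272). Bub1 and Cdc20, genes of mitotic checkpoint and exit, differed by 3.03 and 10.3 points (adjusted p = 0.211 and 0.0723). Of 77 ribosomal protein genes, 60 had no peak (77.9%). Of 9 tested, 2 were higher (22.2%, against 29.4% of all genes tested), Rpl26 and Rpl5. Rpl26 had 29.6%, 40.5%, 37.7% and 41.3% at 24 h and 0% at 12 h (37.3 points, adjusted p = 0.0023), and Rpl5 differed by 10.1 points (adjusted p = 0.0498). Rpl17 did not pass (adjusted p = 0.0648), and the call of Rpl5 was lost in 6 of 7 fits without 1 library.

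Of 16 plasma cell genes, 9 had no peak (56.2%, against 56.7% of all genes), and 3 of 6 tested were higher (50.0%, against 29.4% of all genes tested). Prdm1, the factor that drives plasma cell differentiation, had 48.6%, 33.8%, 53.5% and 64.2% at 24 h and 11.4%, 17.9% and 13.8% at 12 h. The groups did not overlap, and the difference of 35.6 points passed unscaled (SE 7.74, adjusted p = 0.0198) but not scaled (adjusted p = 0.256) or at equal covered length (6.41 points, adjusted p = 0.646). Its start site was covered in 1 library at 24 h and none at 12 h. Ell2, an elongation factor used for secretory immunoglobulin transcripts, had 10.6%, 14.8%, 14.8% and 14.0% at 24 h and 0%, 0% and 1.73% at 12 h (12.98 points, adjusted p = 0.00301, and 8.51 scaled points, adjusted p = 0.0232). Fkbp11, a folding enzyme of the endoplasmic reticulum, had 27.2%, 27.4%, 26.5% and 65.1% at 24 h and 0% at 12 h (36.6 points, adjusted p = 0.0408), and its region overlaps Ccdc65. Mzb1 and Zbtb20 had adjusted p of 0.121 and 0.0742. The call of Ell2 held whichever library was left out but not with the stricter lists (adjusted p = 0.0782), that of Prdm1 was lost without replicate 2 or 3 at 12 h, and that of Fkbp11 was lost in 6 of 7 such fits.

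Of 50 genes of TLR and NF-kB signalling and of the early response, 35 had no peak (70.0%, against 56.7% of all genes). Of 10 tested, 3 were higher unscaled (30.0%, against 29.4% of all genes tested), none of them after scaling. Cd86, a costimulatory protein, had 11.7%, 12.2%, 13.7% and 13.9% at 24 h and 0%, 0% and 7.92% at 12 h (10.2 points, adjusted p = 0.0223). Traf6, an adaptor below TLR9, had 8.93%, 10.8%, 13.9% and 12.1% at 24 h and 8.14%, 0% and 0% at 12 h (8.70 points, adjusted p = 0.042). Fos, an immediate early factor, had 81.9%, 65.7%, 46.2% and 100% at 24 h and 23.0%, 0% and 41.5% at 12 h (52.0 points, adjusted p = 0.0466). The groups did not overlap for any of the 3, as for 47.7% of all genes tested, although the lowest Fos library at 24 h was close to the highest at 12 h. Leaving out single libraries ended the call of Cd86 in 2 of 7 fits, and those of Traf6 and Fos in 6 of 7 each. The tested genes that did not pass were Nfkb2 (23.4 points, adjusted p = 0.0579), Cd40 (5.22 points, 0.083), Egr2 (19.3 points, 0.105), Socs3 (13.9 points, 0.152), Irf7 (18.99 points, 0.208), Tlr3 (16.9 points, 0.211) and Traf3 (0.846 points, 0.256).

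Some cytokine and chemokine genes gained from little or no coverage at 12 h. The 52 cytokine genes averaged 28.8% ± 6.75 at 24 h and 8.44% ± 2.08 at 12 h, and 11 of 25 tested were higher unscaled (44.0%, against 29.4% of all genes, with a median difference of 28.2 points), 3 of them also scaled. Il6 had 88.9%, 52.5%, 66.7% and 73.9% at 24 h and 0% in all 3 libraries at 12 h (70.5 points, SE 8.80, adjusted p = 0.00356, and 49.7 scaled points, adjusted p = 0.00887). Il12b, a subunit of interleukins 12 and 23, had 48.5%, 87.7%, 67.9% and 99.9% at 24 h and 11.5%, 0.784% and 4.40% at 12 h (70.4 points, adjusted p = 0.011), but -4.29 points at equal covered length (adjusted p = 0.367). Tslp, an epithelial cytokine, had 100% in all 4 at 24 h and 46.3%, 0% and 44.3% at 12 h (69.8 points, adjusted p = 0.00915), and it was higher at equal covered length (adjusted p = 0.0156). All 3 genes were picked for the smallest unscaled p of their list, so that their groups did not overlap is a description. Of all genes tested, 47.7% had every 24 h library above every 12 h library. Chemokine genes averaged 43.2% ± 3.89 at 24 h and 17.4% ± 5.62 at 12 h over 32 genes, and 7 of 19 tested were higher (36.8%). Beside Ccl12, Ccl11, which attracts eosinophils, had 100% in all 4 at 24 h and 0%, 0% and 44.9% at 12 h (85.0 points, adjusted p = 0.00497). Cxcl16, whose region overlaps Med11 and Zmynd15, had 36.2%, 40.1%, 54.5% and 41.0% at 24 h and 0% at 12 h (43.0 points, adjusted p = 0.00323).

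Genes of other blood lineages passed unscaled at shares from that of all genes upward, but not at equal covered length. Of 39 T and NK cell genes, 18 had no peak and 8 of 18 tested were higher (44.4%, against 29.4% of all genes). Tbx21, the factor of type 1 T helper cells that activated B cells can also express, had 87.3%, 100%, 100% and 100% at 24 h and 22.2%, 0% and 21.4% at 12 h (82.3 points, adjusted p = 0.00139). Cd247, a signalling chain of the T cell receptor, had 12.3%, 16.8%, 11.9% and 17.8% at 24 h and 0% at 12 h (14.7 points, adjusted p = 0.00427). Of myeloid genes, 5 of 16 tested were higher (31.2%). Csf3r, the receptor of granulocyte colony-stimulating factor, had 42.4%, 19.4%, 34.8% and 43.4% at 24 h and 0% at 12 h (34.99 points, adjusted p = 0.0118), and its region overlaps Mrps15. The macrophage genes Marco and Adgre1 differed by 50.1 points (adjusted p = 0.0264) and 22.4 points (adjusted p = 0.0181). Of erythroid genes, 7 of 15 tested were higher (46.7%). Slc4a1, the anion exchanger of red cells, had 91.3%, 89.4%, 100% and 100% at 24 h and 17.8%, 20.7% and 45.3% at 12 h (67.2 points, adjusted p = 0.00317). Trim10 differed by 58.7 points (adjusted p = 0.0243) and Sptb, spectrin of the red cell membrane, by 32.4 (adjusted p = 0.0245), but by -0.23 at equal covered length. The calls of Marco, Adgre1, Trim10 and Sptb were lost in 2 to 4 of the 7 fits without 1 library. At equal covered length Tbx21 had 46.7 points (adjusted p = 0.311) and Slc4a1 2.98 points (adjusted p = 0.98), so neither passed there. Of 11 T and NK cell genes tested there, 0 were higher and 1 was lower. Of 8 myeloid genes 1 was higher and 2 were lower, and of 10 erythroid genes 0 were higher and 0 lower. Of all genes tested there, 7.33% were higher and 4.47% lower. Over all members, T and NK cell genes averaged 22.3% ± 3.77 at 24 h and 8.94% ± 1.66 at 12 h, myeloid genes 26.0% ± 3.77 and 13.2% ± 4.76, and erythroid genes 35.1% ± 4.59 and 18.3% ± 1.97.

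**Figure D5:**
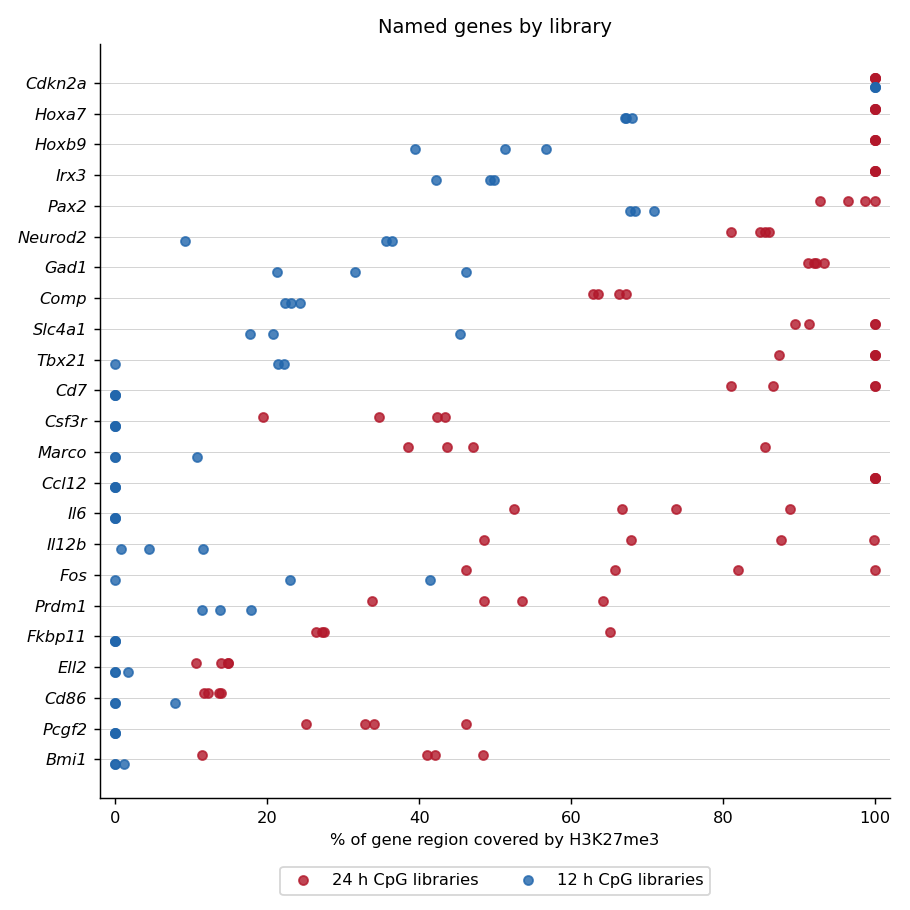
Percent of the gene region covered by H3K27me3 in each library for 23 genes, 24 h above 12 h. Cdkn2a is at 100% in all 7 libraries, and Ccl12 is at 100% at 24 h and 0% at 12 h.

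The lists of solid tissue, enzyme and transporter genes had 23.1% to 35.3% of their tested genes higher, near the 29.4% of all genes. Among them, 8 of 23 extracellular matrix genes tested were higher. Comp, a cartilage protein whose region overlaps Crtc1, had 63.5%, 66.3%, 67.2% and 62.9% at 24 h and 23.1%, 22.3% and 24.4% at 12 h (41.7 points, adjusted p = 0.00202, and the same difference at equal covered length, adjusted p = 0.00135). Matn1 differed by 57.7 points (adjusted p = 0.0158). Tnn was 31.0 points higher as deposited (adjusted p = 0.0197) but 19.8 points lower at equal covered length, -19.8 (adjusted p = 0.00162). Of liver genes, 5 of 19 tested were higher, among them Nr0b2, a nuclear receptor of bile acid control (22.7 points, adjusted p = 0.00453), Afp (46.0 points, adjusted p = 0.0175) and Hnf4a (36.4 points, adjusted p = 0.0247, and -0.47 at equal covered length). Nr0b2 differed by 0 points in the gene body without flanks, so its gain lay in the 2 kb flanks. The calls of Matn1 and Tnn were lost without replicate 3 at 12 h, that of Afp in 2 and that of Hnf4a in 4 of 7 fits without 1 library. Keratins had 6 of 22 tested higher, cytochrome P450 genes 10 of 30, serpins 3 of 13 and solute carriers 60 of 170. Slc22a7, an organic anion transporter, had 81.8%, 84.0%, 82.0% and 82.5% at 24 h and 33.1%, 28.1% and 33.4% at 12 h (51.1 points, adjusted p = 0.00132). Cyp24a1, which breaks down vitamin D, had 100% in all 4 at 24 h and 53.0%, 69.7% and 52.8% at 12 h (41.5 points, adjusted p = 0.00332). Krt76 had 92.3%, 73.1%, 52.4% and 100% at 24 h and 0% at 12 h (79.5 points, adjusted p = 0.00624).

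Of 32 genes of the Polycomb complexes and their antagonists, 15 had no peak (46.9%, against 56.7% of all genes), and 3 of 13 tested were higher (23.1%, against 29.4%). Neither share stood far from that over all genes. Pcgf2 and Bmi1 encode alternative ring finger subunits of Polycomb repressive complex 1. Pcgf2 had 25.2%, 32.9%, 34.1% and 46.2% at 24 h and 0% at 12 h (34.6 points, adjusted p = 0.0068), and its region overlaps Cisd3 and Psmb3. Bmi1 had 11.4%, 41.0%, 42.1% and 48.4% at 24 h and 0%, 0% and 1.14% at 12 h (35.4 points, adjusted p = 0.0316), and its region overlaps Commd3. At equal covered length Bmi1 had 17.9 points and did not pass (adjusted p = 0.237). Cbx8, a chromobox reader of the mark, had 83.5%, 77.8%, 100% and 100% at 24 h and 59.9%, 25.7% and 50.7% at 12 h (44.9 points, adjusted p = 0.0227). All 3, picked for small p, were separate between the times, as were 47.7% of all genes tested. Of these calls that of Pcgf2, which entered the test only through 24 h, alone held whichever library was left out. That of Cbx8 was lost in 3 and that of Bmi1 in 6 of 7 such fits.

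Olfactory and vomeronasal receptor genes, large families in clusters, were marked in few members. Of 1100 olfactory receptor genes, 919 had no peak (83.5%, against 56.7% of all genes), and 17 of 141 tested were higher (12.1%, against 29.4% of all genes). At equal covered length, where the 24 h lists were cut more, 0 of 45 were higher and 12 lower. Of all genes tested there, 7.33% were higher and 4.47% lower. Of 352 vomeronasal receptor genes, 323 had no peak (91.8%) and 4 of 24 tested were higher (16.7%, against 29.4% of all genes). Vmn1r33 had 100%, 100%, 97.3% and 100% at 24 h and 31.4%, 32.2% and 30.9% at 12 h (67.8 points, adjusted p = 0.000956), but -31.5 points at equal covered length (adjusted p = 0.00014). Its direction thus turned with the way the lists were levelled. Of 57 clustered protocadherins, 21 had no peak (36.8%) and 10 of 34 tested were higher (29.4%, the share over all genes), and their regions overlap one another. Pcdhga1 had 58.9%, 60.4%, 58.4% and 68.7% at 24 h and 47.2%, 33.4% and 37.7% at 12 h (22.2 points, adjusted p = 0.0319). At equal covered length it had -1.11 points, and its call was lost in 6 of 7 fits without 1 library. Of 360 Zfp genes, 204 had no peak, the same share as over all genes, and 29 of 120 tested were higher (24.2%, against 29.4% of all genes). How reads of near-identical copies were placed is not given in the sources used here, so values of receptor, keratin, chemokine, interferon and protocadherin genes are uncertain.

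The other features mapped in the same kind of cells were read at the same genes, as a description. H2AK119Ub at 24 h covered 78.2% ± 9.45 of the region at the 250 genes that were full of H3K27me3, 22.1% ± 7.43 at the 1020 genes higher in both fits and 7.16% ± 3.73 at the 18742 genes without H3K27me3 (SD over 5 libraries). At 12 h the values were 79.1% ± 3.32, 19.7% ± 3.76 and 3.67% ± 1.14 (3 libraries). At 7768 further genes, tested but neither called unscaled nor full, H2AK119Ub covered 21.4% ± 6.80 at 24 h and 20.9% ± 3.59 at 12 h. The values at the genes higher in both fits were thus near those of tested genes that were not called. Median gene length was 3.01, 13.7, 10.8 and 17.1 kb in these classes, in the order given. At the genes higher in both fits, H3K27me3 averaged 39.0% at 24 h and 0.980% at 12 h, and the H2AK119Ub libraries ran from 11.6% to 31.3% at 24 h and from 16.3% to 23.8% at 12 h, so they overlapped. Their H2AK119Ub in unstimulated cells was 4.90% ± 2.40 (4 libraries). At the full genes, the genes higher in both fits and those without H3K27me3, H3K27ac covered 0.751% ± 0.512, 5.04% ± 1.85 and 12.2% ± 4.64 at 24 h. At 12 h it covered 1.23% ± 1.23, 5.10% ± 3.14 and 11.4% ± 3.92 (3 libraries each). Suz12 at 24 h covered 51.3% ± 5.53 at the full genes, 5.50% ± 1.33 at the genes higher in both fits and 3.09% ± 0.564 at those without the mark (3 libraries). It covered 8.41% ± 1.61 at the tested genes that were not called. H3K9me3 at 24 h covered 0% at the full genes, 0.234% ± 0.038 at the genes higher in both fits and 4.11% ± 0.357 at those without the mark (4 libraries). In unstimulated cells the genes higher in both fits averaged 2.24% ± 2.95 for H3K27me3 (3 libraries).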

How the data were processed

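H3K27me3 was measured by CUT&RUN in 4 libraries at 24 h and 3 at 12 h of 1 µM CpG, and the authors deposited 1 peak list for each library, so peaks were called in each library separately. The lists have 6 columns and no header, and their names give SEACR, the setting "norm relaxed" and Cast. Per the submitters' processing notes the build was mm10, and the tools were Trimmomatic 0.32, Bowtie2 2.3.4.1, Picard and deepTools 3.5.1. Not given in the sources used here are the allele-splitting rule, SEACR's version, the depth of sequencing and how the yeast spike-in entered. The total and highest signal of a peak are coverage as the authors deposited it, and they served only to rank peaks within their own list. The 3 IgG samples have no list among the files and were not analysed here. The lists of Suz12 and Ring1B were called with another setting than those of the histone marks, so they were read only between gene classes within a time.

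From the deposited positions, overlapping peaks were merged, and the percent of each gene region under peaks was computed for 33073 protein-coding and lncRNA genes of 19 autosomes (RefSeq, GRCm38.p6, 2 kb flanks). Genes with a peak in at least 3 of 7 libraries were tested on these percentages with limma 3.58.1 in R 4.3.3 (trend and robust options, no covariates), with Benjamini-Hochberg adjustment over all genes tested and a threshold of 0.05. All adjusted p-values of genes are from this test, unscaled unless said otherwise, and the script was tested on simulated data. Scaling multiplied each library by the geometric mean autosomal covered length over its own. Library measures were compared with 2-sided exact permutation tests, adjusted over 5 measures. Depth is unknown, so no counting intervals are given, and p-values measure the spread between these libraries. All else ran in Python 3.11.15 (numpy 2.4.6, pandas 2.3.3, matplotlib 3.10.9).

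Replicate numbers were checked as pairs, and deviations of same-numbered libraries had correlations of -0.00, -0.06 and 0.07. These few values cannot settle whether the numbers pair samples. The sources used here do not tie the numbers to animals, and they were not used as pairs.

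Named genes were protein-coding with a named symbol: the 12 largest gains higher in both fits, the most negative differences, the 6 with the highest minimum over the 7 libraries, the 3 tested members of each list with the smallest unscaled p, every CDK inhibitor gene, and the tested B cell, plasma cell and TLR genes, of which 1 is not reported here. The comparison, the members and the 28 gene lists were chosen with earlier results of these data known. Of 720 hand-written list entries, 7 were not among the autosomal genes. Alternatives changed the gene filter, region, scale, fit, peak threshold, levelling, pairing and set of libraries.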

Additional observations from a re-analysis of the deposited data

Results flagged for a closer look

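In 121 sets of 4 libraries at 24 h (named genes and library measures), 13 had 1 library far from the others, by a test of the gap to the nearest library that chance alone meets in about 1 of 20 such sets. Replicate 4 stood apart at Olfr713 (98.7% covered, the others 100%), C1qa (90.5%, the others 100%), Nkapl (100%) and Fkbp11 (65.1%). Replicate 1 stood apart at Nhlh1 (97.9%), Tbx21 (87.3%), Tas2r144, a bitter taste receptor gene (0%, the others 48.2% to 53.9%), and Cdkn2c (6.24%, the others 0%). Replicate 2 stood apart at Fam241b (77.4%) and Krt28 (94.3%), and replicate 3 at Cdc20 (0%, the others 13.3% to 14.2%), Afp, a fetal serum protein (71.9%), and Vmn1r33 (97.3%). In 8 of these sets the other 3 libraries were all at 100% or all at 0%, so that any gap sufficed. No measure of whole libraries was among the 13.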

How the results depend on the processing

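Leaving out each library in turn gave 1888 to 3383 changed genes unscaled and 637 to 2845 scaled (597 to 1302 higher and 37 to 1543 lower), and log2 differences of 1.00 to 1.36 for covered length, 0.48 to 0.81 for peak number and 0.45 to 0.56 for mean peak length. The long-peak share then differed by 19.3 to 24.0 points and the gene-region share by -2.19 to -0.43 points. With 6 libraries the exact tests cannot fall below 0.0667 or 0.1. At equal covered length 750 genes passed, 466 higher and 284 lower. With the unstimulated libraries in the scaled fit, 942 passed, 23 of them lower. With the replicate number as a block, 0 genes passed unscaled and 0 scaled, against 4037 and 2641 at an unadjusted p under 0.05 in limma. Whether libraries of the same number share an animal is not given, and the few correlations between them cannot settle it. With the upper part of each list by signal, the gene-region share differed by -3.27 points (exact permutation p = 0.0286). Bases covered in all 3 libraries at 12 h were covered over 99.3% at 24 h. At equal covered length the direction turned for Sptb (-0.23 points), Il12b (-4.29), Hnf4a (-0.47), Tnn (-19.8), Vmn1r33 (-31.5), Vmn1r236 (-16.0), Pcdhga1 (-1.11) and Krt28 (-14.3), and, scaled, for Cpne7 (12.1) and Cebpd (3.27), while Ifna16 had 0.0061, no difference. The cause was not tested. Of 1781 unscaled values of single named genes under other settings, 1528 kept their direction and side of the threshold. Unknown depth, the Cast allele alone and 3 libraries at 12 h limit what smaller gains could be seen.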
